A study of Mus musculus with 2 samples.

Results

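The potassium channel genes of the mouse utricle were described by cell type at 2 ages. All gene symbols that start with Kcn were taken, except Kcne1 and Kcnq1, which were left out by name, and 5 antisense transcripts, which leaves 92 of 99 Kcn symbols and of 31053 genes in the data. Of these 92 genes, 56 had at least 20 unique molecular identifiers (UMIs, each standing for a captured RNA molecule) summed over the cells of some cell class at some age, and levels are reported only for genes among these 56. The samples were sensory epithelium of the utricle, an organ of balance in the inner ear, from wild-type (WT) mice, taken on embryonic day 14 (E14) or on postnatal day 2 (P2), freed with thermolysin, dissociated with Accutase and profiled by droplet single-cell RNA sequencing. How many animals went into each library is not given in the sources used here. No mutation, transgene or treatment separates the groups, and each age is 1 library, so no difference below has a replicate check and none has a p-value.

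Potassium channels pass potassium ions out of or into a cell along the electrochemical gradient, and they differ mainly in what opens them. In hair cells, the mechanosensory receptors of the epithelium, potassium entering from the endolymph carries most of the transduction current, and channels in the basolateral membrane let it leave again and set the speed and size of the receptor potential. Supporting cells and transporting epithelia such as dark cells take up and secrete potassium around them. Voltage-gated channels (Kcna to Kcnd, Kcnh, Kcnq and the silent subunits Kcnf, Kcng, Kcns and Kcnv) open on depolarization, inward rectifiers (Kcnj) conduct best near rest, tandem-pore channels (Kcnk) leak, and Kcnma1, Kcnn, Kcnt and Kcnu channels respond to internal calcium or other internal ions. Accessory subunits (Kcnab, Kcnip, Kcnmb, Kcne) bind to these pores and change their gating or trafficking.

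The E14 library held 15636 barcodes and the P2 library 6251, of which 10514 and 3948 cells were kept with a median of 6841 and 9898 UMIs. The libraries shared 23 barcode sequences, 10 of them among kept cells. Clusters were formed without any Kcn gene and named from marker genes, and 38.6% of E14 cells and 44.1% of P2 cells lay in clusters left unnamed. Because the names rest on these markers, marker levels describe the classes and do not check their names. At P2, Pou4f3, a hair cell transcription factor, stood at 833 UMIs per 1000000 (CPM) in hair cell-like and 23.1 CPM in supporting cell-like cells. Tectb, a matrix protein gene of supporting cells, stood at 63.5 and 1694 CPM. Some markers separated the classes less, such as the supporting cell marker Sox2 at 436 and 599 CPM. Although the tissue was labelled as sensory epithelium, 3646 of the E14 cells were mesenchymal-like, and glial-like, immune-like and vascular cells were present as well. The hair cell-like class held 225 cells at E14 and 948 at P2, and the supporting cell-like class 496 and 640. Levels below are CPM of UMIs summed over a class, with exact 95% Poisson intervals that cover counting error only. The protocol counts the 3′ ends of transcripts, so a level does not scale with transcript length, and the levels of different genes also depend on how well each is captured.

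Summed over the 92 genes, potassium channel RNA took 578 CPM (551 to 606) of hair cell-like cells at E14 and 836 CPM (820 to 853) at P2. Supporting cell-like cells had 207 CPM (198 to 217) and 284 CPM (274 to 294), nonsensory epithelial-like cells 196 and 209 CPM, and dark cell-like cells 220 and 297 CPM. At E14 the melanocyte-like cells had 1071 CPM and the pericyte-like cells 573 CPM, each mostly from a single gene, while mesenchymal-like cells had 111 CPM, immune-like cells 94.0 CPM and red blood cell-like cells 38.3 CPM. By family, 25 of 39 voltage-gated genes were reported, 7 of 15 inward rectifiers, 6 of 14 tandem-pore genes, 6 of 8 genes of channels gated by internal ions and 12 of 16 accessory genes. The map of levels by class shows a block of voltage-gated genes and BK channel subunits in hair cell-like cells, Kcnk1 across the supporting, nonsensory epithelial and dark cell-like classes, Kcnj13 in melanocyte-like cells, and Kcnj8 in pericyte-like and endothelial-like cells.

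**Figure D1:**
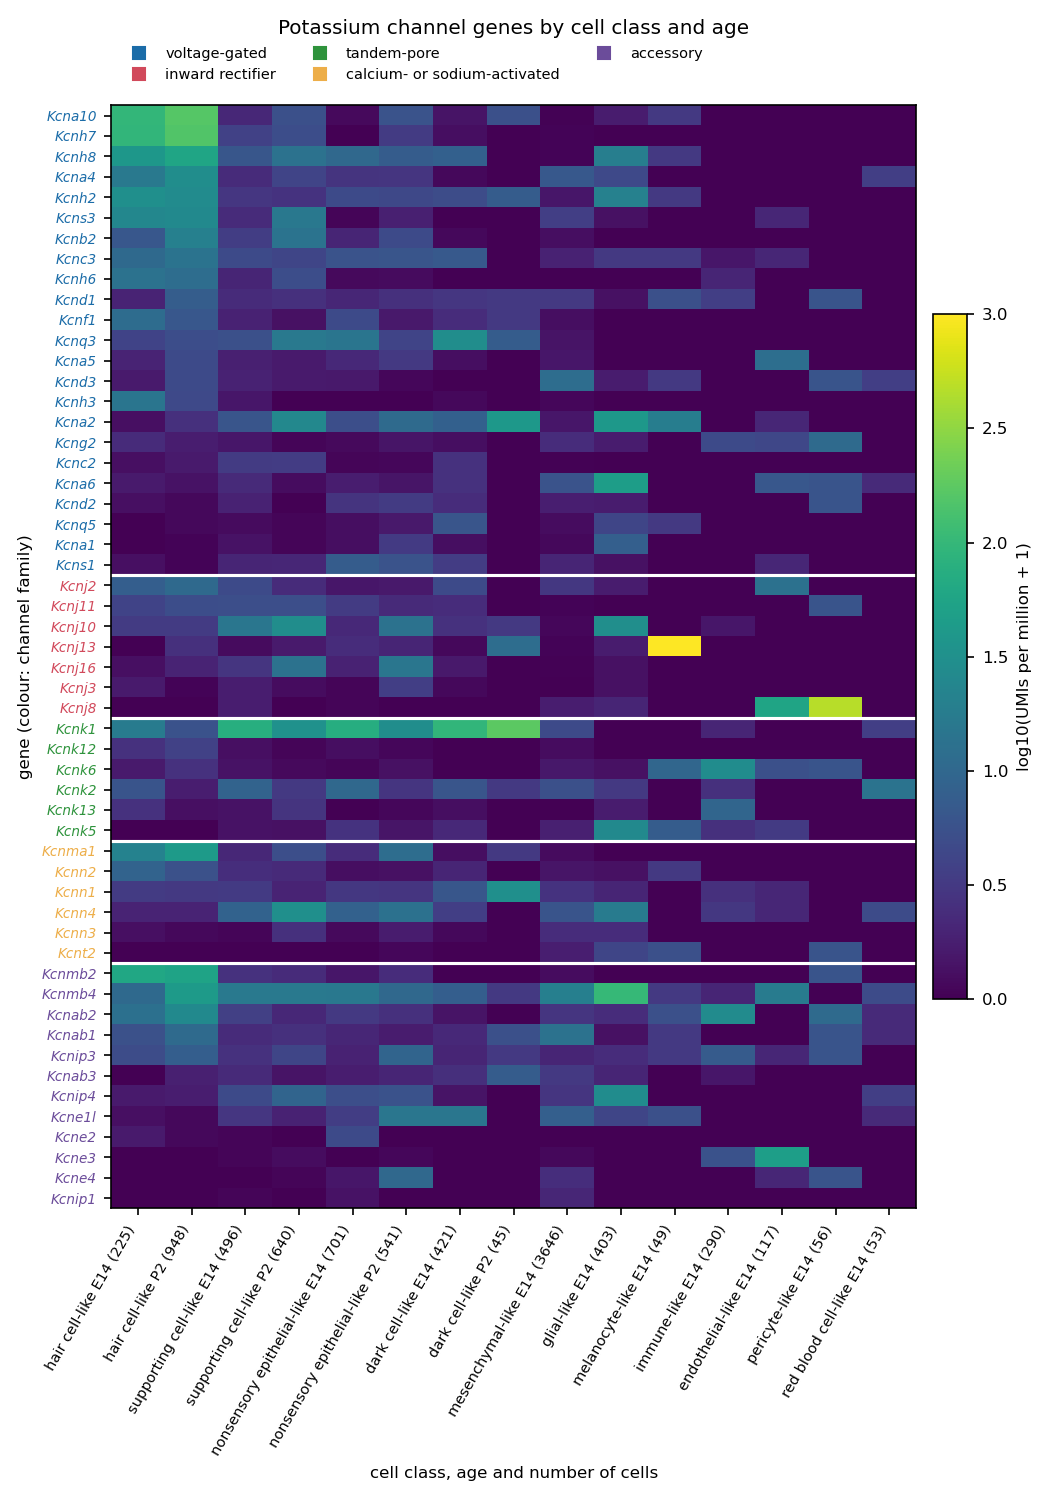
Levels of 54 potassium channel genes, as log10 of UMIs per 1000000 plus 1, in the classes with at least 40 cells (columns, with cell numbers) at E14 and P2, with genes grouped by family and ordered within each by their level in P2 hair cell-like cells. Kcna10 and Kcnh7 are brightest in the hair cell-like columns, at 159 and 152 CPM at P2, and the brightest cell of the map is Kcnj13 in melanocyte-like cells at 990 CPM.

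The first comparison set hair cell-like against supporting cell-like cells, to find which channel genes distinguish the receptor cells from their neighbours. At P2, 38 members had at least 20 UMIs in either class; 24 were at least 2-fold higher in hair cell-like cells, against 20.8% of the 13100 genes measured in the same way, and 10 were at least 2-fold lower, against 21.8% of all genes. At E14, 17 of 29 members were at least 2-fold higher in hair cell-like cells, against 15.6% of 12541 genes, and 6 were at least 2-fold lower, against 20.4%. The median log2 ratio of the members was 1.92 at P2 and 1.34 at E14, beside 0.02 over all genes at both ages. Many members passed the count minimum only in the class where they were high: 17 members had 20 UMIs in both classes at P2, of which 10 were at least 2-fold higher and 3 lower in hair cell-like cells, against 15.9% and 16.7% of the 10910 genes that passed this stricter minimum. At E14 the numbers were 9, 6 and 1, against 16.3% and 8.82% of 9312 genes.

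Kcna10, a Shaker-family pore subunit, had 95.9 CPM (85.2 to 108) in hair cell-like and 1.15 CPM in supporting cell-like cells at E14, and 159 CPM (152 to 166) and 4.46 CPM at P2. The ratio was 83.1 (45.8 to 168) at E14 and 35.6 (26.8 to 48.3) at P2. Kcnh7, a pore subunit of the ether-a-go-go related (ERG) group, had 92.6 CPM (82.1 to 104) in hair cell-like and 2.83 CPM in supporting cell-like cells at E14, and 152 CPM (145 to 159) and 4.10 CPM at P2. Its ratio was 32.7 (22.0 to 50.5) at E14 and 37.1 (27.6 to 51.0) at P2. The intervals of the classes lay far apart at both ages for both genes, but the size of the ratios moved with the settings. The lowest P2 ratio under any alternative was 17.5 for Kcna10, with the mitochondrial limit at 10%, and 9.65 for Kcnh7, at clustering resolution 0.5. With doublets kept, the E14 ratios were 986 and 501. In the E14 library, mesenchymal-like cells had 1 UMI of Kcna10 and 2 of Kcnh7, and immune-like cells had 0 of either.

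The upstream sequences of these 2 genes, which headed the hair cell-like class at P2, are shown because these were its most abundant members. Each is read 5′ to 3′ along the gene's strand, from the RefSeq start site of the GRCm38.p6 build, at chr3:107182893-107183055 on the plus strand for Kcna10 and chr2:63184288-63184537 on the minus strand for Kcnh7. From the window of 250 bases, the 87 bases of Kcna10 that overlap its annotated first exon were left out. Capitals mark matches to CAGNTG on either strand, a form of the E-box that basic helix-loop-helix factors bind.
Kcna10: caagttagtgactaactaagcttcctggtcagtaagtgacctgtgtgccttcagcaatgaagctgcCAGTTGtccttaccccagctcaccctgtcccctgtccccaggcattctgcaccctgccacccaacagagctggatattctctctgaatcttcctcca
Kcnh7: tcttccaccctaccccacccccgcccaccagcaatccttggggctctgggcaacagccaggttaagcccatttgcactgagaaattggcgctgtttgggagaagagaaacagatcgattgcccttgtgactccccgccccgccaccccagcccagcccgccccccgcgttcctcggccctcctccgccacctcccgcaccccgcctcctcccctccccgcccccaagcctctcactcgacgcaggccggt
The Kcna10 window held 1 match and the Kcnh7 window 0, and 44.8% of all 32851 promoter windows of the same length held at least 1. G and C made up 53.2% of the Kcna10 window and 67.6% of the Kcnh7 window, with a median of 52.4% over all windows. A match is a string of letters and not a site shown to be bound.

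Other voltage-gated genes followed the same direction with smaller ratios. Kcnh8, of the ether-a-go-go-like group, had a ratio of 4.60 (3.83 to 5.58) at P2 and 7.08 (5.05 to 10.1) at E14. Kcnh2, the ERG subunit best known from the heart, had 30.3 CPM at E14 and 27.3 CPM at P2 in hair cell-like cells, 15.2-fold and 15.8-fold the supporting cell-like level. Kcna4, which forms fast inactivating channels, had a ratio of 11.1 (5.90 to 22.4) at E14 and 9.29 (6.52 to 13.6) at P2. The silent subunits, which alter other voltage-gated pores without conducting on their own, were split: Kcnf1 had a ratio of 11.2 (5.21 to 26.6) at E14 and 15.2 (5.65 to 57.2) at P2, whereas the ratio of Kcns3 was 17.4 (9.56 to 34.2) at E14 and 1.73 (1.42 to 2.11) at P2.

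The BK channel, opened by voltage and calcium together, was represented by its pore gene Kcnma1 and by the accessory genes Kcnmb2 and Kcnmb4. Kcnma1 was found in E14 hair cell-like cells at 20.4 CPM (15.7 to 26.2) and in P2 ones with 42.1 CPM (38.5 to 45.9), 17.7-fold (9.24 to 37.3) and 10.0-fold (7.42 to 13.9) the supporting cell-like level. Kcnmb2, whose protein inactivates BK channels, was at 60.3 CPM (51.9 to 69.7) in E14 and 54.7 CPM (50.6 to 59.1) in P2 hair cell-like cells, with ratios of 35.9 (21.5 to 64.2) and 40.0 (24.1 to 71.9). The P2 ratio of Kcnmb2 was 7.83 with the mitochondrial limit at 10% and 8.68 at resolution 0.5, and its E14 ratio was 240 with doublets kept. Kcnmb4 lay on opposite sides at the ages. At E14 it had 9.56 CPM in hair cell-like and 15.5 CPM in supporting cell-like cells, so that the ratio was 0.616 (0.398 to 0.921) that did not reach 2-fold, and at P2 the levels were 41.9 and 15.2 CPM and the ratio 2.76 (2.31 to 3.30). Kcnn2, a small-conductance calcium-activated channel that answers efferent input in hair cells, had 7.91 CPM at E14 and 4.52 CPM at P2, with ratios of 5.39 (2.68 to 11.3) and 3.54 (1.94 to 6.90).

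Among accessory subunits of Shaker channels, Kcnab2 had a ratio of 4.35 (2.55 to 7.50) at E14 and 21.3 (12.3 to 40.5) at P2, and Kcnab1 had 9.79 CPM against 1.64 CPM at P2, a ratio of 5.97 (3.62 to 10.4). Kcnj2, a strong inward rectifier, had 6.92 CPM in hair cell-like and 3.67 CPM in supporting cell-like cells at E14 and 9.54 and 1.37 CPM at P2, where the ratio was 6.98 (4.06 to 12.9). Kcnd1 and Kcnd3, pore subunits of A-type channels, had ratios of 4.03 (2.39 to 7.15) and 5.77 (2.58 to 15.2) at P2 and were under the count minimum in both classes at E14. Kcnip3, a calcium-binding subunit of Kcnd channels, had 6.86 and 3.19 CPM at P2, a ratio of 2.15 (1.43 to 3.29) that was as low as 1.79 at resolution 0.5. Kcnb2 had 19.2 CPM in hair cell-like and 12.8 CPM in supporting cell-like cells at P2, which is 1.50-fold (1.21 to 1.87).

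The 10 members that were lower in hair cell-like cells at P2 included 2 inward rectifiers and 3 tandem-pore channels. Kcnn4, an intermediate-conductance calcium-activated channel of epithelia and blood cells, had 30.3 CPM in supporting cell-like and 1.004 CPM in hair cell-like cells at P2, which is 30.2-fold (17.1 to 59.1), and 7.77 against 0.989 CPM at E14. Kcna2, a Shaker subunit best known from nerve, had 24.1 and 1.59 CPM at P2, 15.1-fold (9.50 to 25.5). Kcnj10, the inward rectifier with which glia buffer potassium, and Kcnj16, which pairs with it, were 12.3-fold (8.34 to 18.8) and 12.5-fold (6.94 to 24.8) higher in supporting cell-like cells at P2. Kcnip4 was 11.1-fold (5.62 to 25.1) higher there, Kcnk1, a weakly conducting tandem-pore channel, 6.87-fold (5.17 to 9.27), and Kcnq3 3.68-fold (2.67 to 5.15). At E14, Kcnk1 had 74.3 CPM in supporting cell-like and 16.8 CPM in hair cell-like cells, 4.42-fold (3.32 to 5.99), and Kcnj10 had 14.2 and 2.31 CPM. With every cell weighing the same, the P2 difference was 6.46-fold for Kcnj10 and 8.16-fold for Kcna2.

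RNA released by broken cells can reach other droplets, and its part in the low levels was not tested. Of the hair cell markers with at least 50 UMIs, the supporting cell-like level was 1.35% to 17.1% of the hair cell-like level at P2, with a median of 3.63% over 14 markers, and 2.59% to 12.1% at E14, with a median of 4.68% over 13. Kcna10, Kcnh7 and Kcnmb2 in supporting cell-like cells at P2 stood at 2.81%, 2.70% and 2.50% of their hair cell-like level, within that range, and Kcnma1 at 9.96%. Kcnh8 stood at 21.7%, above every hair cell marker. In the other direction, the hair cell-like level of 14 supporting cell markers was 2.96% to 72.8% of the supporting cell-like level at P2, with a median of 4.43%. The highest were Sox2 at 72.8%, Cyp26b1 at 45.5% and Lfng at 38.0%, and the next was Otogl at 9.2%. Kcnn4 stood at 3.31% and Kcnj10 at 8.14%. At E14 the range over 14 supporting cell markers was 3.32% to 73.5%, with a median of 14.4% and with Sox2 and Lfng highest.

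**Figure D2:**
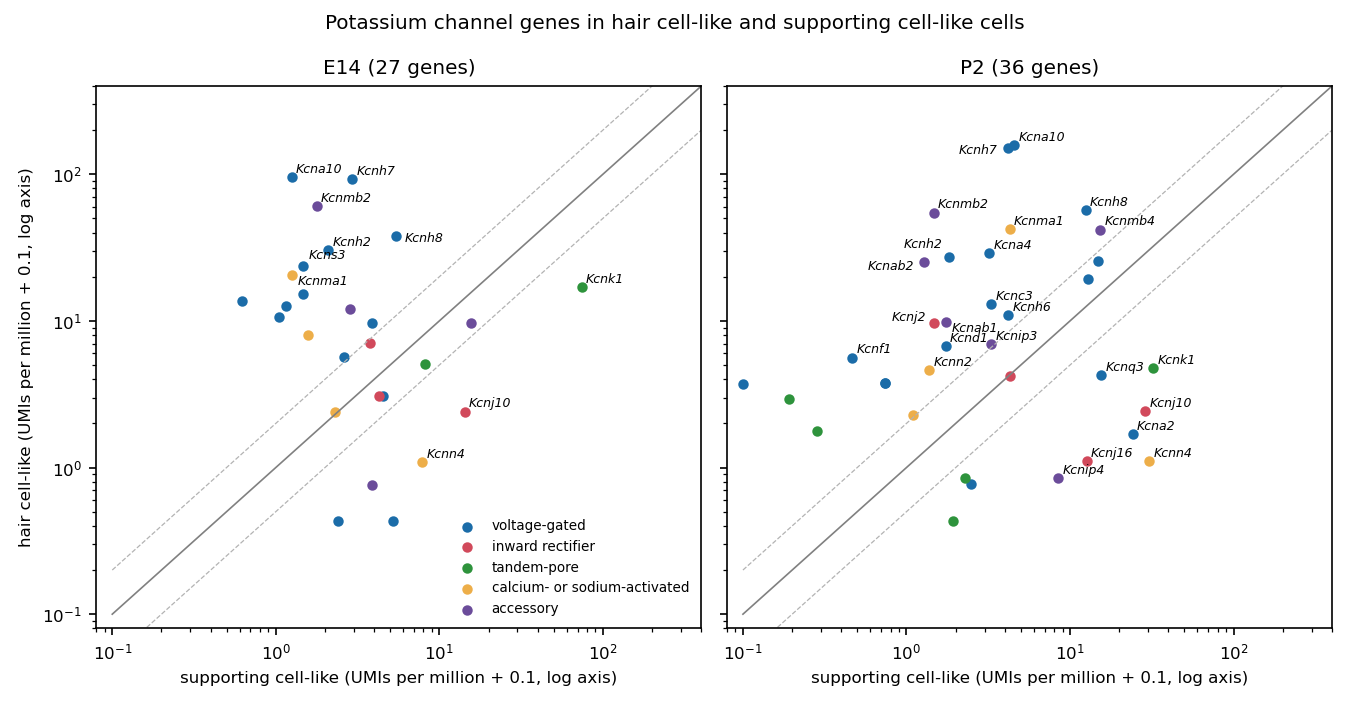
Levels of 27 (E14) and 36 (P2) members with at least 20 UMIs in either class, in hair cell-like (vertical) against supporting cell-like cells (horizontal), as UMIs per 1000000 plus 0.1 on log axes, with the line of equal levels and dashed lines at 2-fold. Kcna10, Kcnh7 and Kcnmb2 lie highest above the line among the labelled genes at both ages, and Kcnn4 and Kcna2 farthest below it at P2.

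With every cell thinned to 4000 UMIs, Kcna10 was detected in 18.8% of hair cell-like cells at E14 (39 of 207, exact binomial interval 13.8% to 24.8%) and in 32.8% at P2 (235 of 717, 29.4% to 36.4%), and Kcnh7 in 26.1% and 46.03%. Unthinned, the Kcna10 shares were 31.6% and 47.7%. The supporting cell-like share of Kcna10 was 0 of 442 thinned cells at E14, with an exact upper bound of 0.831%, and 2.46% at P2, and unthinned it was 1.21% and 7.50%. The thinned mesenchymal-like share at E14 was 0.0317%. The median depth was 14273 and 14755 UMIs in hair cell-like, 8886 and 11577 in supporting cell-like and 6976 in mesenchymal-like cells, and 18 and 231 hair cell-like cells were shallower than 4000 UMIs and left out. Kcnma1 was detected in 8.70% and 14.9% of thinned hair cell-like cells at E14 and P2, and Kcnmb4 in 3.38% and 15.3%.

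The hair cell-like class was not uniform, and several members differed widely among its clusters. At E14 it consisted of cluster 17, led by Ccer2, Grp and Pvalb (181 cells), and cluster 33, led by Lbx2, Pgam2, Acbd7 and Ocm (44 cells). At P2 it consisted of cluster 10, led by Grp, Nnat and Atoh1 (143 cells), cluster 2, led by Gal, Nppa and Calb2 (318 cells), cluster 11, led by Spp1 and Scg2 (139 cells), cluster 17, led by Ocm and Ighm (74 cells), and cluster 5, also led by Ocm, whose 274 cells were shallow with a median of 1519 UMIs. Kcna10 had 16.8 CPM (12.0 to 22.8) in E14 cluster 17 and 389 CPM (342 to 440) in E14 cluster 33. At P2 it had 14.0 CPM (9.98 to 19.2) in cluster 10, 53.4 CPM in cluster 2, 162 CPM in cluster 5, 427 CPM (391 to 465) in cluster 17 and 519 CPM (487 to 553) in cluster 11. The neighbouring levels in the P2 order did not overlap in their intervals, and the lowest cluster of each age was the one led by Grp.

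Kcnma1 followed the same clusters, with 3.77 CPM in E14 cluster 17 and 82.1 CPM (61.5 to 107) in cluster 33, and at P2 with 0.719 CPM in cluster 10, 7.83 CPM in cluster 2, 24.2 CPM in cluster 5, 139 CPM (123 to 158) in cluster 11 and 156 CPM (135 to 180) in cluster 17, the last pair with overlapping intervals. Its accessory genes separated the 2 clusters with the most Kcnma1. Kcnmb2 had 326 CPM (295 to 360) in P2 cluster 17 and 14.9 CPM (9.81 to 21.7) in P2 cluster 11, and 161 CPM (132 to 195) in E14 cluster 33 against 33.1 CPM in E14 cluster 17. Kcnmb4 had 163 CPM (145 to 183) in P2 cluster 11 and 19.0 CPM (12.0 to 28.5) in P2 cluster 17, and 10.1 and 7.74 CPM in the E14 clusters 17 and 33.

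Kcnab1 was highest in 1 cluster at each age, with 71.8 CPM (57.5 to 88.6) in P2 cluster 17 and 21.7 CPM (11.9 to 36.4) in E14 cluster 33, against 0 UMIs in E14 cluster 17 and 1.44 to 10.6 CPM in the other P2 hair cell-like clusters. Kcnn2 had 21.5 CPM (14.0 to 31.5) in P2 cluster 17 and at most 3.097 CPM in the other P2 clusters of the class. Kcnb2 had 72.6 CPM in P2 cluster 17 and 41.3 CPM in P2 cluster 11, and 1.52 to 10.0 CPM in the others.

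Other members ran the other way. Kcna4 had 41.7 CPM (34.5 to 50.0) in P2 cluster 10 and 34.6 CPM in cluster 2 but 15.4 CPM in cluster 11 and 5.78 CPM (2.32 to 11.9) in cluster 17, and at E14 it had 18.9 CPM in cluster 17 and 1 UMI in cluster 33. Kcnk1 had 20.9 CPM (15.5 to 27.6) in E14 cluster 17 and 14.0 CPM (9.98 to 19.2) in P2 cluster 10 and 0.826 to 4.55 CPM in the other P2 clusters. Kcnh2 was more even, with 13.9 to 36.4 CPM over the 7 clusters, whereas Kcnh7 ranged from 28.8 to 251 CPM.

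**Figure D3:**
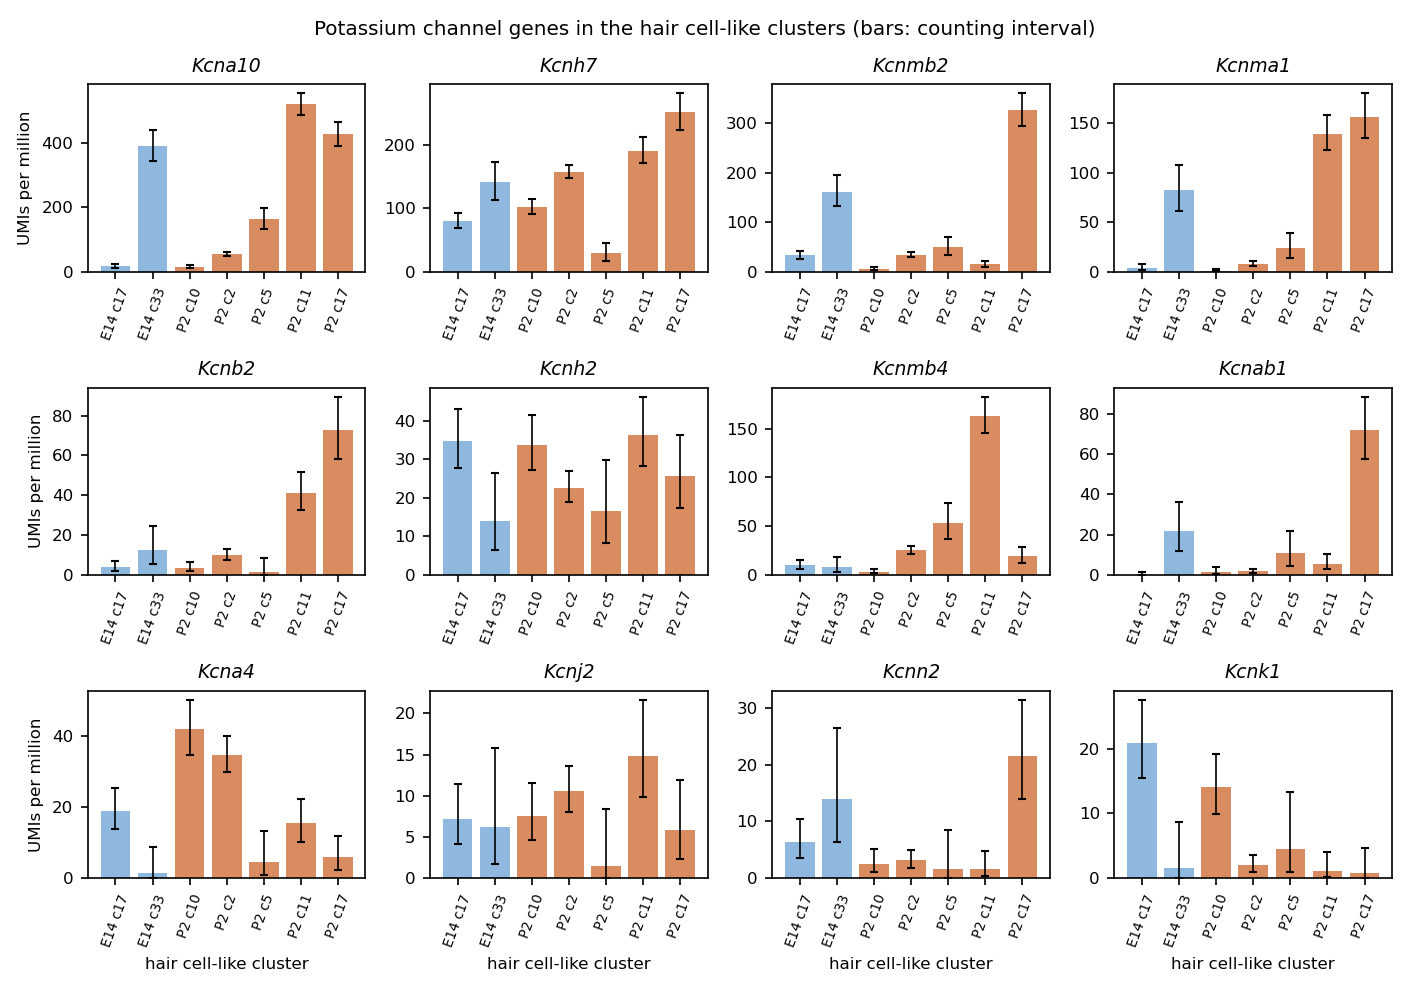
Levels of 12 potassium channel genes (UMIs per 1000000, with exact 95% Poisson intervals) in the E14 (blue) and P2 (orange) hair cell-like clusters, named by age and cluster number. Kcna10 and Kcnma1 are high in E14 cluster 33 and P2 clusters 11 and 17, Kcnmb2 and Kcnab1 are highest in P2 cluster 17, and Kcnmb4 is highest in P2 cluster 11.

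The ages were compared within a class next. In hair cell-like cells, 9 of 31 members were at least 2-fold higher at P2, against 8.08% of 12068 genes, and 2 were at least 2-fold lower, against 6.31%. The median log2 ratio was 0.59, beside 0.01 over all genes. The P2 class had 11955334 UMIs in all and the E14 class 3033313, so that 20 UMIs stand for 1.67 CPM at P2 and 6.59 CPM at E14. Of the 19 members with 20 UMIs at both ages, 3 were at least 2-fold higher and 2 lower at P2, against 3.34% and 6.17% of 9646 genes.

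Kcnmb4 differed most among members with ample counts, from 9.56 CPM (29 UMIs) at E14 to 41.9 CPM (501 UMIs) at P2, a ratio of 4.38 (3.01 to 6.61). Kcnb2 had a ratio of 3.42 (2.09 to 5.97) and Kcnd1 a ratio of 6.68 (2.20 to 33.1) on 3 UMIs at E14. Kcnab2 had a ratio of 2.13 (1.50 to 3.097), which stayed at 2-fold or more under 8 of 12 alternatives and was lowest, at 1.53, at resolution 2. Kcnma1, at 2.06 (1.58 to 2.73), and Kcnab1, at 2.12 (1.22 to 3.998), lay close to the 2-fold limit, and with doublets kept, where the E14 class held 114 cells instead of 225, their ratios were 0.841 and 0.866. Kcna10 and Kcnh7 had ratios of 1.66 (1.46 to 1.88) and 1.64 (1.45 to 1.87). Under the alternatives the Kcna10 ratio ranged from 0.621 to 1.99, on both sides of equality, and the Kcnh7 ratio from 1.21 to 1.72. Kcnmb2 had 0.907 (0.769 to 1.074) and Kcnh2 0.899 (0.711 to 1.15), both intervals spanning 1. Their ranges under the alternatives were 0.456 to 0.911 and 0.704 to 1.21. Kcnk1 was 3.59-fold (2.41 to 5.34) lower at P2, but its P2 over E14 ratio of 0.279 was 0.611 with doublets kept and 0.641 at resolution 2, short of 2-fold. Kcnh3, singled out here after its values were seen, was 3.76-fold (2.39 to 5.90) lower.

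These ratios compare mixtures of clusters. Cluster 33 made up 19.6% of the hair cell-like cells at E14, and P2 clusters 11 and 17 made up 14.7% and 7.81% of those at P2. Kcnmb4 had 10.1 and 7.74 CPM in E14 clusters 17 and 33, and at P2 it had 25.1, 53.0 and 163 CPM in clusters 2, 5 and 11 but 3.24 and 19.0 CPM in clusters 10 and 17, so that 2 of the 5 P2 clusters did not reach 20 CPM. For Kcna10 and Kcnma1, the levels of E14 cluster 33 were within the range of the P2 clusters, and how much of their difference between the ages comes from the share of each cluster was not tested.

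In supporting cell-like cells, 15 of 27 members were at least 2-fold higher at P2, against 9.24% of 12725 genes, and 5 were at least 2-fold lower, against 10.3%. The median log2 ratio was 1.15, beside 0.05 over all genes, and of the 16 members with 20 UMIs at both ages 8 were higher and 2 lower, against 6.93% and 5.91% of 11424 genes. These ratios too compare mixtures of clusters. The E14 class consisted of cluster 8, led by Tectb, Otol1 and Ntf3 (420 cells, 71.95% of the UMIs of the class), and cluster 28, led by Msx1, Jag1 and Hes5 (76 cells, 28.05% of its UMIs), and the P2 class of clusters 3, 13, 14 and 15. Kcns3 stood at 1.36 CPM at E14 but at 14.8 CPM (12.6 to 17.2) at P2, and the ratio was 10.8 (6.15 to 20.8). Kcnj16 had 1.89 and 12.6 CPM, a ratio of 6.65 (4.06 to 11.6), and its partner Kcnj10 14.2 and 28.8 CPM, a ratio of 2.03 (1.66 to 2.50) that was 1.63 with the mitochondrial limit at 10% and 1.41 with every cell weighing the same. Kcnb2 had a ratio of 5.06 (3.27 to 8.17), Kcna2 4.68 (3.44 to 6.48), Kcnn4 3.91 (3.03 to 5.10) and Kcnq3 3.49 (2.48 to 5.02).

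Lower at P2 were Kcnk2, a mechanically gated tandem-pore channel, at 8.08 and 2.19 CPM, which is 3.70-fold (2.31 to 6.11), Kcnk1, at 74.3 and 32.2 CPM, which is 2.31-fold (2.03 to 2.63), Kcnj2, which was 2.69-fold (1.43 to 5.30) lower, and Kcnab2, which was 2.30-fold (1.14 to 4.88) lower. With the mitochondrial limit at 10% the Kcnab2 ratio of P2 over E14 was 1.41, and at resolution 0.5 it was 1.05. Kcna10 and Kcnma1 were also higher at P2 in supporting cell-like cells, by 3.87-fold (1.98 to 8.25) and 3.63-fold (1.85 to 7.77), at levels of 4.46 and 4.19 CPM. Hair cell-like cells were 2.14% of the E14 cells and 24.0% of the P2 cells, and the part of free hair cell RNA in these low levels was not tested.

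An unnamed E14 cluster of 258 cells, led by Zpld1 and Msx1 and holding 7 supporting cell and 4 crista-type markers, had 284 UMIs of Kcnk1, or 70 CPM, 21.2 CPM of Kcnq3 and 1.97 CPM of Kcnj10, against 74.3, 4.41 and 14.2 CPM in the E14 supporting cell-like class. Adding that cluster to the class, which was tried once these values were known, gave Kcnq3 a ratio of 1.63 between the ages. Among the P2 supporting cell-like clusters, Kcnq3 had 29.8 CPM in cluster 3, led by Gjb6 and Fgf3, and 1.11 to 8.13 CPM in the others. Kcnb2 had 43.9 CPM in cluster 14, led by Tectb and Igfbp3, and 5.87 to 6.93 CPM elsewhere. Kcna2 had 57.3 CPM in cluster 15, led by 1500015O10Rik and Ptpn5, and 3.33 to 20.4 CPM in the others, and Kcnk1 ranged from 16.5 CPM in cluster 3 to 59.96 CPM in cluster 14.

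**Figure D4:**
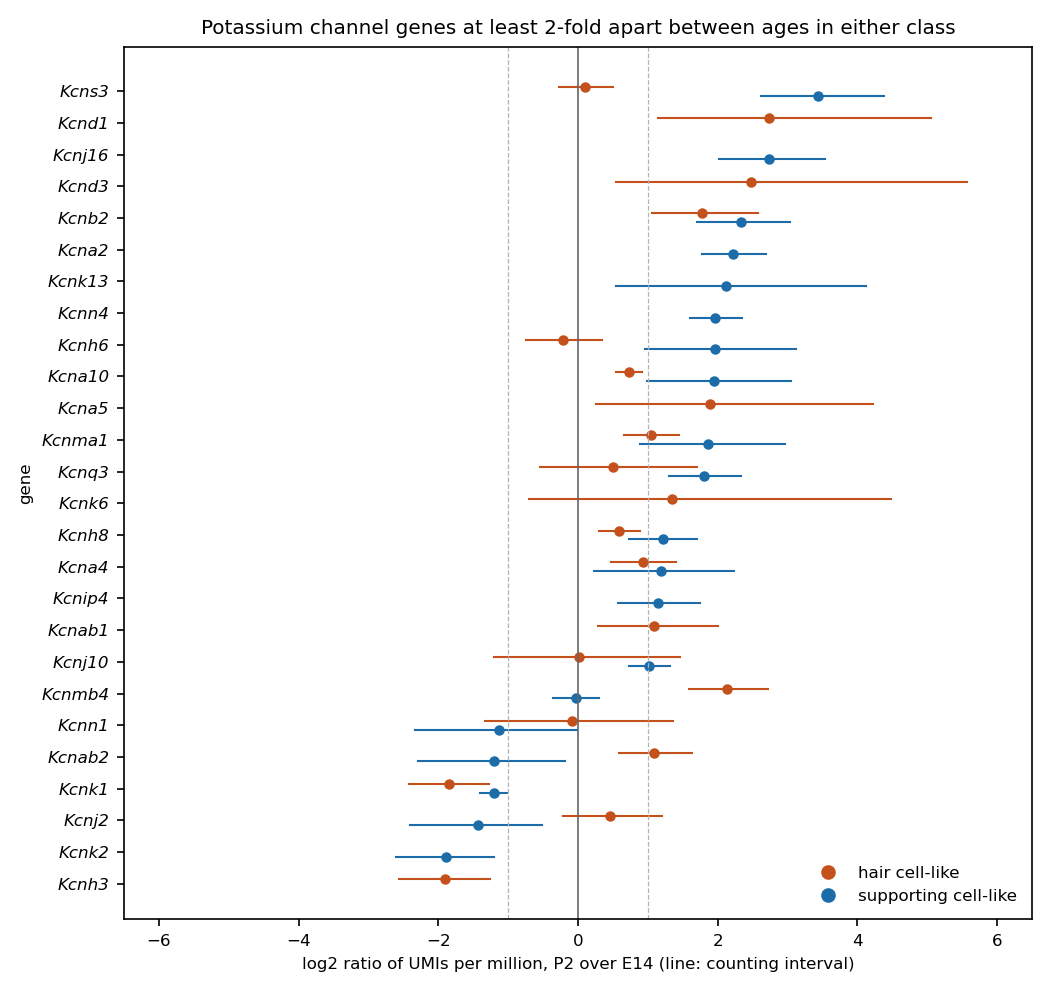
Ratios of P2 over E14 on a log2 scale, with exact 95% intervals, in hair cell-like (orange) and supporting cell-like cells (blue), for members at least 2-fold apart between the ages in either class; a member with fewer than 20 UMIs at both ages of a class has no point there. Kcns3 has a ratio of 10.8 in supporting cell-like and 1.08 in hair cell-like cells, Kcnmb4 0.979 and 4.38, and Kcnk1 is below 1 in both.

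In nonsensory epithelial-like cells, 12 of 28 members were at least 2-fold higher at P2, against 13.2% of 12697 genes, and 5 were at least 2-fold lower, against 10.6%. Many members passed the count minimum only at the age where they were high. Of the 12 members with 20 UMIs at both ages, 3 were higher and 2 lower at P2. The share of all genes under this stricter minimum was not computed for this class. Kcnj16 stood at 0.922 CPM at E14 but at 14.2 CPM (11.7 to 16.9) at P2, and Kcnj10 1.23 and 12.6 CPM, so that both genes of the pair were higher at P2 here as in supporting cell-like cells. Kcne4, an accessory subunit, had 0.512 and 9.24 CPM, a ratio of 18.0 (7.41 to 57.1). Its 79 UMIs at P2 came from 23 of 541 cells, 16 of them from a single cell, and the interval covers counting error only. Kcne1l had 2.46 and 14.0 CPM, and Kcnma1 1.44 and 10.9 CPM, a ratio of 7.58 (4.30 to 14.4). Kcna10 had 0.205 and 4.80 CPM, and the part of free hair cell RNA in these low levels was not tested. Kcnk1 had 72.4 CPM at E14 and 28.8 CPM at P2, Kcnq3 13.8 and 3.16 CPM, and Kcnk2 9.43 and 1.87 CPM. The class held clusters with different leading genes at the ages, among them Vit and Ttr at E14 and Penk and Slc26a4 at P2, so the ratios compare different mixtures of cells.

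Kcnk1 was the most abundant member in dark cell-like cells, which secrete potassium into the endolymph, with 94.4 CPM (87.2 to 102) at E14 in 421 cells and 173 CPM (137 to 216) at P2 in 45 cells. Kcnq3 had 28.8 CPM (24.9 to 33.3) at E14 and 3 UMIs at P2. Kcne1l had 14.0 CPM and Kcnq5 5.19 CPM at E14, and both had 0 UMIs at P2, where 3 UMIs would stand for 6.496 CPM. Kcna2 had 7.32 CPM at E14 and 39.0 CPM at P2, and Kcnn1 5.34 and 30.3 CPM. Both P2 levels were under the count minimum, since 20 UMIs stand for 43.3 CPM in the P2 class, whose median depth was 2541 UMIs.

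Levels in the other classes were read mainly at E14, where these classes had most of their cells. Kcnj13, an inward rectifier known from pigmented and transporting epithelia, had 990 CPM (901 to 1085) in 49 melanocyte-like cells, from 453 UMIs. Kcnj8, the pore of ATP-sensitive channels in mural cells of vessels, had 479 CPM (389 to 585) in 56 pericyte-like cells and 55.2 CPM (41.0 to 72.8) in endothelial-like cells, where the accessory gene Kcne3 had 47.5 CPM. Glial-like cells had 100 CPM (89.0 to 113) of Kcnmb4, 45.5 CPM of Kcna6, 39.1 CPM of Kcna2, 29.2 CPM of Kcnj10, 28.1 CPM of Kcnip4, 25.6 CPM of Kcnk5, an alkaline-sensitive leak channel, and 7.12 CPM of Kcna1. Immune-like cells had 27.8 CPM of Kcnk6 and 27.3 CPM of Kcnab2. In mesenchymal-like cells Kcnmb4 had 18.8 CPM, Kcnab1 12.3 CPM, Kcnd3 10.8 CPM, Kcne1l 7.19 CPM and Kcnip1 1.11 CPM. Kcns1, a silent subunit, had 6.46 CPM in E14 and 4.91 CPM in P2 nonsensory epithelial-like cells, and Kcnd2 had 1.85 and 2.34 CPM there. Kcng2 reached the count minimum in E14 mesenchymal-like cells, at 1.38 CPM, and Kcna5 in P2 hair cell-like cells, at 3.68 CPM.

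The 36 members under 20 UMIs in every class included, just below the limit, Kcnip2 with 18 UMIs in its highest class, Kcnu1 with 17 and Kcnk7 with 16, and just inside it were Kcna1, Kcnk13 and Kcnt2 with 20. Of the 92 members, 4 had no UMI in a kept cell of either library. At this depth a gene under the minimum is not shown to be absent, since 20 UMIs stand for 0.769 CPM in mesenchymal-like cells but 98.8 CPM in pericyte-like cells. Of the 56 reported members, 1, Kcnab2, shares exon bases with another gene on the same strand in the GENCODE M21 annotation, so some of its UMIs could be lost or assigned elsewhere.

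Other ion channel genes were read from fixed lists for hair cell-like cells. Of 9 genes whose proteins partner with potassium channels, 4 of 5 measured were at least 2-fold above the supporting cell-like level at P2, where 20.8% of all genes were at least 2-fold higher and 21.8% lower. Dpp6, a partner of Kcnd channels, had 13.5 CPM at E14 and 6.86 CPM at P2, and Lrrc26, a BK channel subunit, had a P2 over E14 ratio of 4.35 (2.05 to 11.1). Hcn4, a hyperpolarization-activated channel gene, had 15.5 CPM at E14 and 9.95 CPM at P2. Of 16 calcium channel subunit genes, 6 of 12 measured were at least 2-fold above and 2 at least 2-fold below the supporting cell-like level at P2, beside the same shares of all genes, with Cacna1d, the pore of the presynaptic calcium channel of hair cells, at 78.1 CPM at E14 and 67.9 CPM at P2. Of 12 sodium channel subunit genes, 4 of 4 measured were at least 2-fold above the supporting cell-like level at P2, and Scn3b had the highest level, with 49.5 CPM at E14 and 66.8 CPM at P2. Between the ages in hair cell-like cells, 0 of 4 measured were at least 2-fold higher at P2, against 8.08% of all genes. The 1 that was at least 2-fold lower, against 6.31%, was Scn11a, named here after its values were seen. It had 18.5 CPM at E14 and 2.68 CPM at P2.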

How the data were processed

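Utricular sensory epithelium of WT mice was profiled at E14 and P2, in 1 10x Genomics 3′ library per age. The authors deposited raw UMI counts per gene and barcode, made with Cell Ranger 3.1.0, with barcodes already called as cells. The paper names GRCm39 as the genome and the processing notes name GRCm39 and mm10, which was not settled; the files hold no coordinates, and all 92 gene identifiers matched GENCODE M21 (GRCm38). Seurat 4.1.1 steps of the study are not part of these counts. With 1 library per age no replicate spread could be estimated.

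A barcode was kept from 500 genes and 1000 UMIs upward if mitochondrial UMIs made up 15% or less. Doublets were scored by similarity to 2 artificial doublets per cell and removed at 0.8% per 1000 barcodes (1074 at E14, 133 at P2). Each library was normalized to 10000 UMIs per cell and clustered alone on 2000 variable genes, without any Kcn or listed channel gene, with 30 principal components, 15 neighbours and Leiden clustering (leidenalg 0.10.2) at resolution 1. A cluster was named from at least 3 markers, each in at least 10% of its cells, at least 2-fold over the rest and at least 20% of the marker's highest cluster level. The class needed the most markers without a tie, and no other class could have more markers among the cluster's 10 leading genes. Clusters of low median depth stayed unnamed unless a marker of the class was among their leading genes. Clusters led by cell cycle genes stayed unnamed, a clause added after the clusters were seen. Levels are CPM of summed counts with exact Poisson intervals, and ratios carry exact conditional binomial (Clopper-Pearson) intervals, both with scipy. A ratio with 0 UMIs on a side uses 3 counts. A member was called apart at a ratio of at least 2 or at most 0.5, among genes with at least 20 UMIs in either group; there is no significance test. Scripts were tested on artificial counts. Named genes were 19 listed by symbol, the 5 highest in each class of at least 30 cells, up to 10 largest ratios each way per comparison with at least 50 UMIs, and members with at least 50 UMIs in a class and 5 times the level of the library's other classes; of other channel lists, the 3 highest in hair cells were eligible. Members and lists were chosen with earlier results of these data known. Alternatives were 10 planned and 2 added. Promoters are RefSeq, GRCm38.p6. Some genes are counted but not reported here.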

Additional observations from a re-analysis of the deposited data

Results flagged for a closer look

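Some results were set apart because effects under the same contrast lay on opposite sides of equality in 2 groups, and the difference between them was not tested. Kcnmb4 had a hair cell-like over supporting cell-like ratio of 2.76 (2.31 to 3.30) at P2 and 0.616 (0.398 to 0.921) at E14. Kcnab2 had a P2 over E14 ratio of 2.13 (1.50 to 3.097) in hair cell-like cells and 0.434 (0.205 to 0.876) in supporting cell-like cells, the latter on 13 UMIs at P2 and 26 at E14. Under the alternatives the ratio of Kcnab2 ranged from 1.53 to 2.14 in hair cell-like cells and from 0.269 to 1.41 in supporting cell-like cells.

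Other values stood in clusters that received no name and entered no comparison, each above the level in the named classes. Kcnk2 reached 245 CPM (228 to 263) in an E14 cluster of 399 cells, whose leading genes were Osr1, Kcnk2 and Tppp3. Kcna1 reached 13.0 CPM (9.79 to 17.01) in a P2 cluster of 274 cells led by H19, Sostdc1 and Zpld1. Kcnip4 reached 36.7 CPM in a P2 cluster of 148 cells led by Il33 and Dlk1.

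A P2 cluster of 171 cells with a median of 1810 UMIs, led by Ccdc33 and Sema6d, held 6 hair cell markers, among them Myo7a, Myo6, Otof and Tmc1. In it Kcnh7 had 379 CPM, Kcna10 357 CPM, Kcnh8 249 CPM and Kcnma1 235 CPM, each above the P2 hair cell-like class taken as a whole. Kcna10 was higher still in clusters 11 and 17 of that class.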

How the results depend on the processing

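With 1 library per age, no replicate could be left out and no ratio has a biological error. For the same reason, no paired analysis was possible. Of 12 alternatives, 10 were planned and 2 were chosen after seeing the data. They gave 1125 values of 97 ratios of named genes: 1021 lay within the interval given with the ratio and 100 outside it. The other 4 belonged to ratios at least 2-fold apart and lay on the other side of equality. Where a ratio was not 2-fold apart, a value across equality was counted among the 1021 or the 100. An example is Kcna10 between the ages in hair cell-like cells, with a lowest value of 0.621. The called ratios that kept 2-fold under every alternative were 25 of 28 for the contrast of the 2 epithelial classes at P2, 16 of 17 at E14, 5 of 10 between the ages in hair cell-like cells and 10 of 18 in supporting cell-like cells. Kcna10 ranged from 17.5 to 36.2 at P2 between the classes, Kcnh7 from 9.65 to 38.9 and Kcnmb2 from 7.83 to 44.2.

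With doublets kept, the ratios between the ages in hair cell-like cells were 0.866 for Kcnab1 and 0.841 for Kcnma1; the cause was not tested. In supporting cell-like cells the ratio of Kcnab2 between the ages was 1.41 with the mitochondrial limit at 10% and 1.05 at resolution 0.5. The counts below are of members at least 2-fold apart, each with the members that passed the minimum and the share of all genes called the same way. With at least 50 UMIs, which leaves fewer genes, 8 of 13 members were higher (14.3% of genes) and 3 lower (17.9%) in hair cell-like cells at E14, 1 of 23 was lower at P2 in hair cell-like cells (4.08%) and 2 of 14 in supporting cell-like cells (7.72%). With at least 10 UMIs, which admits more, 10 of 38 members were lower in hair cell-like cells at E14 (20.8%), 14 of 42 were higher at P2 in hair cell-like cells (8.85%) and 8 of 38 were lower at P2 in supporting cell-like cells (12.1%). Members lower at P2 in hair cell-like cells numbered 4 of 33 with a minimum of 2000 UMIs (4.61%) and 4 of 31 with every cell weighing the same (7.33%), and in supporting cell-like cells 3 of 33 with the mitochondrial limit at 10% (6.32%) and 3 of 34 at resolution 0.5 (9.08%). With the Zpld1-led cluster among the E14 supporting cell-like cells, 12 of 33 members were lower in hair cell-like cells at E14 (20.3%) and 8 of 31 were lower at P2 in supporting cell-like cells (10.6%).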
